A study of Mus musculus with 9 samples.

Results

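The SM label marks the vascular mural cells of the mouse thyroid, the smooth muscle cells and pericytes that wrap its blood vessels. They were chosen as the cells that the authors' deposited annotation labels SM, which gave 248 of 10186 cells. The 9 samples came from thyroids of male C57BL/6 mice, 10 to 12 weeks old in the series' design text and 10 to 14 weeks in the labels' protocol, taken 7 days after 1 intraperitoneal injection of antibody. The control group RW received an isotype control against ragweed (40 mg/kg), the group aJ1aJ2 was given blocking antibodies to 2 ligands, Jag1 and Jag2 (20 mg/kg each), and the group aN1aN2 was given antibodies to 2 receptors, Notch1 (5 mg/kg) and Notch2 (10 mg/kg). Each group has 3 samples, and each sample is a pool of thyroids from 6 mice, so the spread reported here is between pools. All 3 aN1aN2 samples carry internal sample numbers of their own range (called series C here), apart from series A (RW 3, aJ1aJ2 1) and series B (RW 1, RW 2, aJ1aJ2 3, aJ1aJ2 4). Receptor blockade and series C therefore cannot be told apart.

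Notch signalling passes between touching cells: a ligand on one cell releases the intracellular part of a receptor on its neighbour, which enters the nucleus and switches on Hes and Hey repressors and feedback genes such as Nrarp. Mural cells are known for Notch3, a receptor that maintains arterial smooth muscle and pericytes and that is engaged by Jag1 on the endothelium and on neighbouring smooth muscle cells. Contractile smooth muscle cells, which ring arteries and arterioles, carry smooth muscle actin and myosin, and pericytes, which lie along capillaries, carry Pdgfrb, Rgs5 and an ATP-sensitive potassium channel made of Kcnj8 and Abcc9. Neither antibody pair is labelled as directed against Notch3.

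The defining contractile genes of mural cells are textbook targets of serum response factor, which binds a 10-base element, the CArG box: CC, 6 letters that are A or T, and GG (CCNNNNNNGG with every N an A or T). The promoters of 2 of the 5 SM markers, Acta2 (smooth muscle actin) and Myl9 (myosin regulatory light chain), are shown because they hold windows of this form with at most 1 inner letter changed. They are the 250 bases before the RefSeq start (build GRCm38.p6, written along the gene's strand), with those windows in capitals:
Acta2, chr19:34255374-34255623, minus strand: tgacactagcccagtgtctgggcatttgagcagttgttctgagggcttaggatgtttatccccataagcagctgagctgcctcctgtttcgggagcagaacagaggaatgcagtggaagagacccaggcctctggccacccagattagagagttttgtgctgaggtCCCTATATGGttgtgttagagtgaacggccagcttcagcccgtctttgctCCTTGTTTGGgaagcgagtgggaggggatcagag
Myl9, chr2:156775214-156775463, plus strand: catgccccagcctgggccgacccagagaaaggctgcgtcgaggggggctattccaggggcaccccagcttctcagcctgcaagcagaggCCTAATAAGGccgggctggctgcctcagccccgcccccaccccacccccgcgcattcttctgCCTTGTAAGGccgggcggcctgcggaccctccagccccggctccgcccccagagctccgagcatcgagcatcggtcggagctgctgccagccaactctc
In Acta2 the windows CCCTATATGG and CCTTGTTTGG begin 84 and 34 bases before the start, and each has 1 inner letter that is neither A nor T. In Myl9 CCTAATAAGG, 161 bases before the start, has A or T at all 6 inner positions, and CCTTGTAAGG, 99 bases before it, has 1 other letter. The motif reads the same on both strands. Among 32851 promoter windows of this length, 1.47% held a strict match and 8.59% held a match with at most 1 inner letter changed. Promoters were found for 14 of 18 genes of the contractile list (16 windows, of which 1 had a strict match and 2 a match with at most 1 changed letter) and for 12 of 18 genes of the pericyte list (14 windows, 0 matches). These matches are descriptions of the letters in these windows.

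SM cells were few and unevenly spread. RW held 8, 5 and 31 SM cells in pools 1, 2 and 3, aJ1aJ2 held 18, 35 and 60 in pools 1, 3 and 4, and aN1aN2 held 30, 35 and 26 in pools 1, 2 and 3. The summed SM counts of unique molecular identifiers (UMIs) ranged from 16559 in RW 2 to 143514 in RW 3, so that 1 UMI was worth 60.4 CPM (UMIs scaled to 1000000 SM UMIs in each pool) in RW 2 and 6.97 in RW 3. The 8 cells of RW 1 were deep, with a median of 7460.5 UMIs against 1083 to 2533 in the other 8 pools. Over all SM cells the median was 1704 UMIs, against 5632 in fibroblasts (label F) and 3994 in the main capillary endothelium (EC1). No SM cell carried a cell barcode found in a second library, although 15 barcodes of the series were, and no replicates looked like 1 library deposited again (chi-square per degree of freedom between replicates 11.1 to 122). Of the 248 cells, 26 carried a UMI of the endothelial genes Pecam1 or Cdh5. These 26 were deep (median 5546 UMIs against 1563 in the others), held 31.1% of all SM UMIs, and included 5 of the 8 cells of RW 1. Markers of T and NK cells, neutrophils and macrophages were at or near 0 in every pool, with at most 66.0 CPM for the whole macrophage list.

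SM cells made up 0.641%, 0.380% and 2.95% of the cells in RW 1, 2 and 3, 3.09%, 1.94% and 3.84% in aJ1aJ2 1, 3 and 4, and 2.87%, 3.95% and 3.78% in aN1aN2 1, 2 and 3. RW 3 sat among the treated pools and the other RW pools lay below all of them. The mean share was 2.96% ± 0.957 (SD, n = 3) in aJ1aJ2 and 1.32% ± 1.41 in RW (exact permutation p = 0.2), and 3.53% ± 0.586 in aN1aN2 (exact permutation p = 0.2, two-sided). With 3 against 3 pools the smallest exact p is 0.1. The pools of each treated group overlapped those of RW. Outside the erythroid and lymphoid labels the shares were 0.880%, 0.792% and 3.44% in RW and 4.14% to 5.99% in aN1aN2, which did not overlap (difference 3.58 percentage points, exact permutation p = 0.1).

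The 5 markers set SM apart from all 15 other labels. These levels come from the cells that the labels were drawn on and are a description. Acta2 (ENSMUSG00000035783, chr19:34241090-34255590) averaged 11300 CPM over the 9 pools, 25.3-fold above the next label, the endothelial label EC3, and 52.4% of SM cells had a UMI of it against 1.56% of EC1 cells. Tagln (transgelin, an actin-binding protein) averaged 7580 CPM (17.6-fold), Myl9 4550 CPM (22.3-fold) and Myh11, the smooth muscle myosin heavy chain, 2900 CPM (20.1-fold). Pln (chr10:53337667-53345987), which restrains calcium uptake into the sarcoplasmic reticulum, averaged 487 CPM, 68.6-fold above the next label, in only 42 cells. Cnn1 (calponin) had the highest ratio of any gene with at least 100 SM UMIs, 252 CPM and 97.4-fold. Other genes of high ratio were Lmod1, a thin-filament nucleator (21.2-fold), Susd5 (21.1-fold), Adcy5, an adenylyl cyclase (17.2-fold), Rasl12 (16.1-fold), the MHC class Ib gene H2-M9 (15.3-fold), the neuropeptide Y receptor Npy1r (14.4-fold), Synpo2 (13.5-fold), the smooth muscle long noncoding RNA Carmn (12.9-fold) and Map3k7cl (12.7-fold). H2-M9 ranged from 0 to 673 CPM across pools and was higher in aN1aN2 than in RW (log2 difference 2.88), which raises its mean ratio.

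Pericyte genes were also present, with smaller ratios over the next label. Pdgfrb, the receptor for the platelet-derived growth factor made by endothelium, averaged 802 CPM (6.49-fold above F) and had a UMI in 73.8% of SM cells. Rgs5 (chr1:169655501-169695813), a regulator of G-protein signalling, averaged 3960 CPM and was 2.01-fold above the endothelial label EC2, Kcnj8 averaged 302 CPM (2.52-fold) and Abcc9 484 CPM (3.13-fold). Some members of the fixed lists were no higher in SM than elsewhere: Smtn was at 231 CPM (1.02-fold over EC4), Des at 336 CPM (0.361 of the level in Th3), Cd248 at 0.244 of the level in F, and Anpep at 0.0889 of the level in P. By pool, Acta2 and Tagln were highest in RW 3, and Rgs5 (1010, 10000 and 4910 CPM) and Kcnj8 (69.0, 785 and 153 CPM) differed widely among the RW pools.

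**Figure D1:**
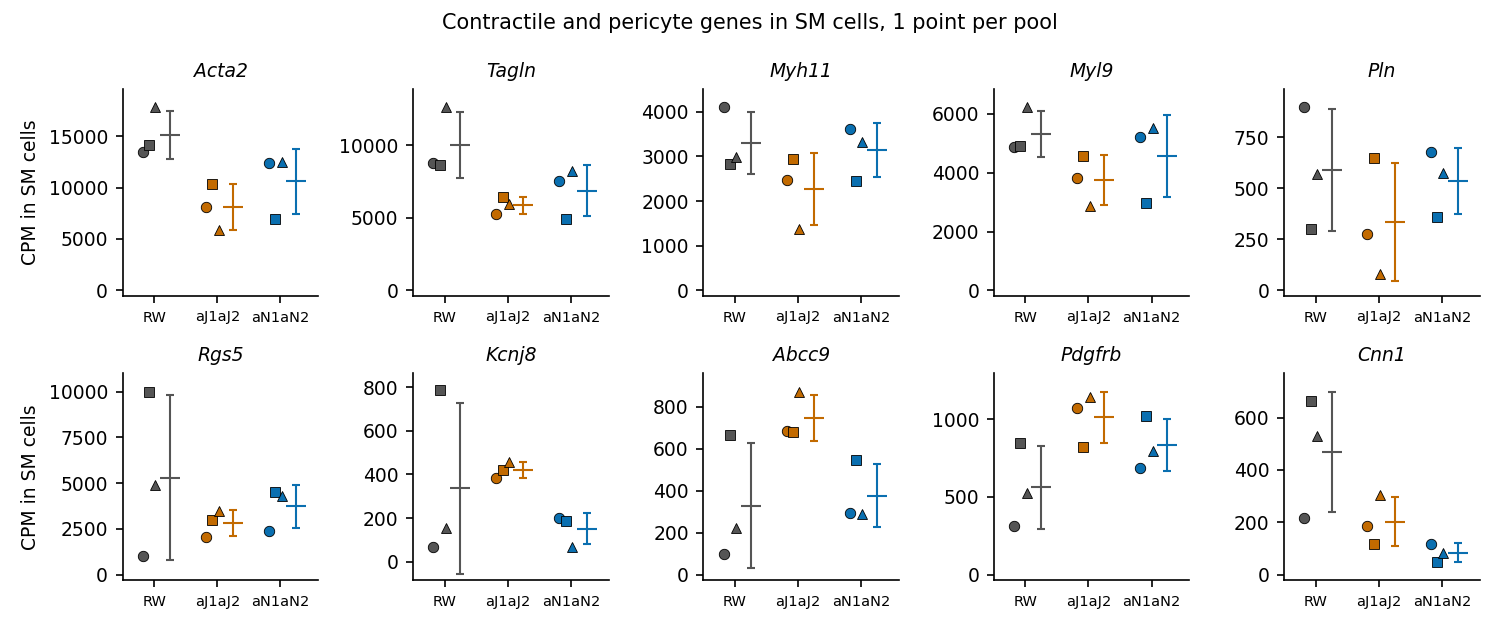
CPM in SM cells (y axis, linear) of 5 SM markers, 4 pericyte genes and Cnn1 in RW, aJ1aJ2 and aN1aN2 (x axis). Each point is 1 pool (circle, square and triangle for pools 1, 2 and 3, or 1, 3 and 4 in aJ1aJ2), with the mean and SD as a bar. Acta2 lies between 13500 and 17800 CPM in RW and between 5850 and 10300 in aJ1aJ2, and Rgs5 spans 1010 to 10000 CPM within RW.

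The label is a mixture of at least 2 states. Clustering of the 248 cells gave 3 clusters. Cluster 1 (141 cells, 56.9%, median 1243 UMIs) was pericyte-like, with Rgs5 at 7600 CPM, Pdgfrb at 1810, Abcc9 at 1460 and Kcnj8 at 869, and with Acta2 at 585 CPM and 0 UMIs of Pln and Cnn1. Its leading genes were Steap4, Kcnj8, Abcc9, Cygb, Cpm, the cotransporter Slc12a2, the follistatin gene Fst and the endothelin receptor Ednrb, mixed with skeletal muscle genes such as Acta1 and Ckm. Those skeletal muscle UMIs came mainly from 1 cell of aJ1aJ2 4, which held 439 of the 551 in all SM cells, 24.7% of its own UMIs. Cluster 2 (85 cells, 34.3%, median 3216 UMIs) was contractile smooth muscle-like, with Acta2 at 16100 CPM, Myh11 at 4250, Pln at 812 and Rgs5 at 1770, and was led by Pln, Sorbs2, Palld, S100a4, Myh11, Pcp4l1 and Dstn. Cluster 3 (22 cells, 8.87%) was given no name. It had Acta2 at 11800 CPM and the highest Cnn1 (660 CPM), but was led by Apoe, the microfibril gene Mfap5, Gpx3, Sdc1, Actg2 and Col3a1. Cluster 1 held 1, 2 and 15 cells of RW 1, 2 and 3, so RW levels within it rest mostly on RW 3. Cluster 3 held 2, 0 and 3 cells of these pools.

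Across cells the states formed a range. Of the 248 cells, 159 had more UMIs of the 18 pericyte genes than of the 18 contractile genes, 86 had fewer and 3 had equal numbers, and 53 lay within 2-fold of equal. The median SM cell had 0.814% of its UMIs in the contractile list and 1.39% in the pericyte list. In the plot of both shares, contractile cells run out along one axis, pericyte-led cells along the other, and few cells hold high shares of both.

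**Figure D2:**
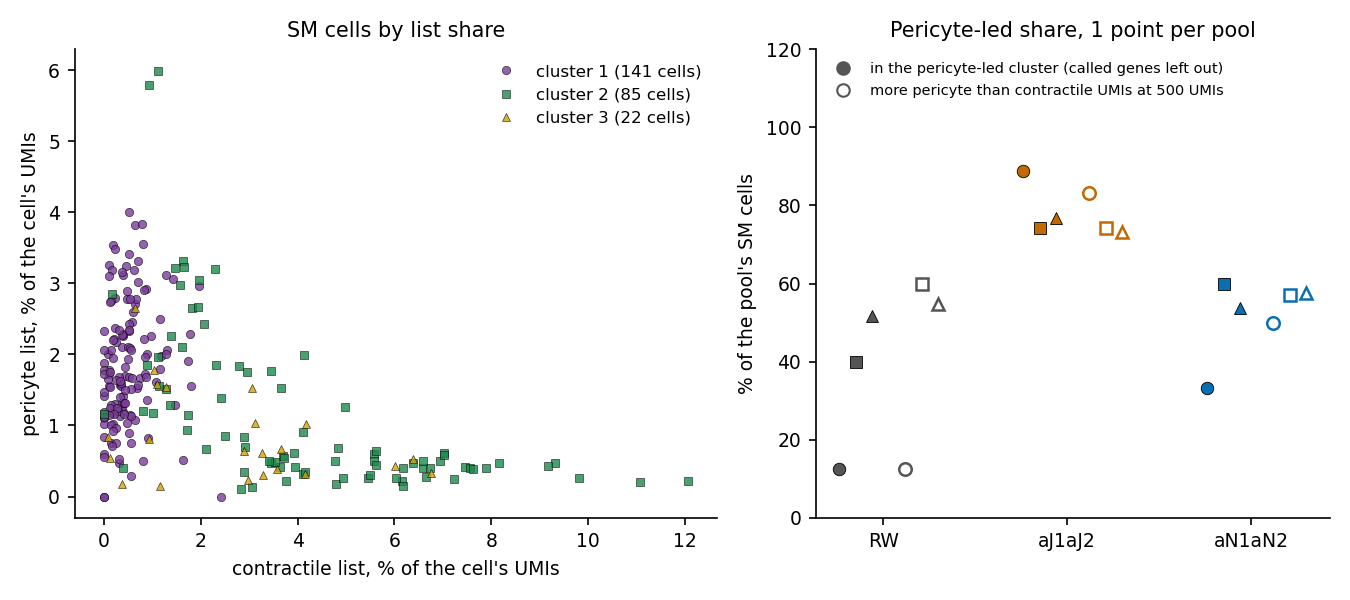
Left: each point is 1 SM cell, with the contractile list (x axis) and the pericyte list (y axis) as percent of its UMIs, by cluster. Right: percent of each pool's SM cells (y axis, 1 point per pool, shapes as for pools in order) in the pericyte-led cluster after called genes were left out (filled) and with more pericyte than contractile UMIs after thinning to 500 UMIs (open). The aJ1aJ2 pools lie at 74.3% to 88.9% (filled), above RW at 12.5% to 51.6%.

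The share of pericyte-led cells was higher in every aJ1aJ2 pool than in every RW pool, at the limit of what 3 against 3 pools can show. To leave the called genes out of the clustering, the cells were clustered again without the 111 genes called in any of the 3 contrasts, which gave a pericyte-led cluster of 152 cells. It held 12.5%, 40.0% and 51.6% of the SM cells of RW 1, 2 and 3, 88.9%, 74.3% and 76.7% of aJ1aJ2 1, 3 and 4, and 33.3%, 60.0% and 53.8% of aN1aN2 1, 2 and 3. All aJ1aJ2 pools lay above all RW pools, within series A (88.9% against 51.6%) and within series B, while aN1aN2 overlapped RW. The mean was 79.9% ± 7.83 in aJ1aJ2 and 34.7% ± 20.1 in RW, a difference of 45.2 percentage points with an exact permutation p of 0.1. In aN1aN2 the mean was 49.1% ± 14.0 (exact permutation p = 0.4). Depth differs between the states, so each cell was also thinned to 500 UMIs, which every cell had: the share with more pericyte than contractile UMIs was then 12.5%, 60.0% and 54.8% in RW, 83.3%, 74.3% and 73.3% in aJ1aJ2, and 50%, 57.1% and 57.7% in aN1aN2 (78.1% ± 10.2 in aJ1aJ2 and 43.5% ± 26.9 in RW without thinning). The shares in RW rest on 8, 5 and 31 cells. Genes that were not called, Acta2 and Tagln among them, stayed in the second clustering. Its pericyte-led cluster shares 134 cells with cluster 1 of the first clustering. The thinned share uses the contractile list too. A lower contractile level per cell and a change in cell numbers therefore cannot be told apart here.

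Notch3 (ENSMUSG00000038146, chr17:32120820-32166852) was the main Notch receptor of SM cells. It averaged 701 CPM, 8.90-fold above EC3, and had a UMI in 158 cells (63.7%) against 0.998% of EC1 cells and 2.08% of T2 cells. Summed over all pools it was at 736 CPM in cluster 1, 674 in cluster 2 and 884 in cluster 3, while in RW alone it was at 1140 CPM in cluster 1 (42 UMIs) and 503 in cluster 2 (103 UMIs). Notch1 averaged 101 CPM, against 359 in EC4, Notch2 51.0 and Notch4 25.3. Of the ligands, Jag1 averaged 301 CPM, 1.24-fold above EC3, with a UMI in 41.1% of SM cells, while Jag2 (24.2 CPM), Dll4 (9.98) and Dll1 (3.87) were each far below the level in the highest other label (183, 170 and 73.5 CPM) and Dll3 was at 0.

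By pool, Notch3 was at 621, 242 and 676 CPM in RW, 581, 538 and 720 in aJ1aJ2, and 994, 673 and 1270 in aN1aN2, and both treated groups overlapped RW. The low RW 2 value is 4 UMIs. Its log2 difference from RW was 0.71 in aN1aN2 (SE 0.30), which did not pass (edgeR quasi-likelihood test, adjusted p 0.227). In the contractile cluster Notch3 was at 503 CPM in RW, 528 in aJ1aJ2 and 1030 in aN1aN2, and in the pericyte-like cluster at 1140, 595 and 880, each summed over pools and not tested. Jag1 was at 522, 60.4 and 307 CPM in RW, 343, 202 and 248 in aJ1aJ2 and 292, 329 and 406 in aN1aN2, overlapping in both comparisons.

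The Notch target Heyl (chr4:123233556-123249875) averaged 147 CPM, 7.30-fold above EC2, and was higher in the pericyte-like cluster (224 CPM) than in the contractile cluster (101 CPM). Hey2 (chr10:30832359-30842801) went the other way, with 42 of its 46 UMIs in the contractile cluster and 1 in the pericyte-like cluster. Hes1 averaged 187 CPM and was at 306, 140 and 185 CPM in clusters 1, 2 and 3, Hey1 averaged 13.3 CPM, and Hes5, Dtx1 and Nox1 had 0 UMIs. Heyl was at 118, 362 and 237 CPM in RW, 66.0, 118 and 112 in aJ1aJ2 and 146, 93.9 and 67.7 in aN1aN2. The aJ1aJ2 pools lay below the RW pools, although aJ1aJ2 3 and RW 1 were nearly level at 118 CPM, and the log2 differences of -0.92 (adjusted p 0.308) and -0.99 in aN1aN2 (adjusted p 0.272) did not pass edgeR's test. Hey2 had 9, 0 and 10 UMIs in RW, 4, 3 and 1 in aJ1aJ2 and 6, 5 and 8 in aN1aN2.

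Nrarp (ENSMUSG00000078202, chr2:25180758-25183339), the feedback inhibitor that Notch itself induces, separated RW from both treated groups. It was singled out after its values were seen. It had 16, 3 and 12 UMIs in RW 1, 2 and 3, 0, 0 and 2 in aJ1aJ2 1, 3 and 4, and 3, 1 and 1 in aN1aN2 1, 2 and 3. All RW pools (158, 181 and 83.6 CPM) lay above every treated pool (0 to 39.8 CPM). The rate per SM UMI was 18.9 times higher in RW than in aJ1aJ2 (31 against 2 UMIs, 95% counting interval 4.82 to 163) and 4.70 times higher than in aN1aN2 (5 UMIs, 1.81 to 15.5). Nrarp had too few counts for the filtered fit. Without the filter, edgeR gave a log2 difference of -4.05 in aJ1aJ2 (adjusted p 0.000257) and of -2.40 in aN1aN2 (adjusted p 0.0865), and the exact permutation p was 0.1 for each. It is also an endothelial gene, with a UMI in 28.7% of EC1 cells, and 20 of its 38 SM UMIs lay in SM cells that carried Pecam1 or Cdh5. In the other SM cells it had 1, 3 and 9 UMIs in RW, 0, 0 and 1 in aJ1aJ2 and 2, 1 and 1 in aN1aN2, so that RW (56.8, 181 and 70.0 CPM) remained above the treated pools (0 to 29.7 CPM). The part of endothelial RNA in the difference was not tested beyond these values. Of the 38 Nrarp UMIs, 30 lay in the contractile cluster and 6 in the pericyte-like cluster. The contractile cluster held 204782 UMIs in RW, 130659 in aJ1aJ2 and 149835 in aN1aN2. The pericyte-like cluster held 36715, 144474 and 37515. The part of this mix of states in the difference was not tested.

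**Figure D3:**
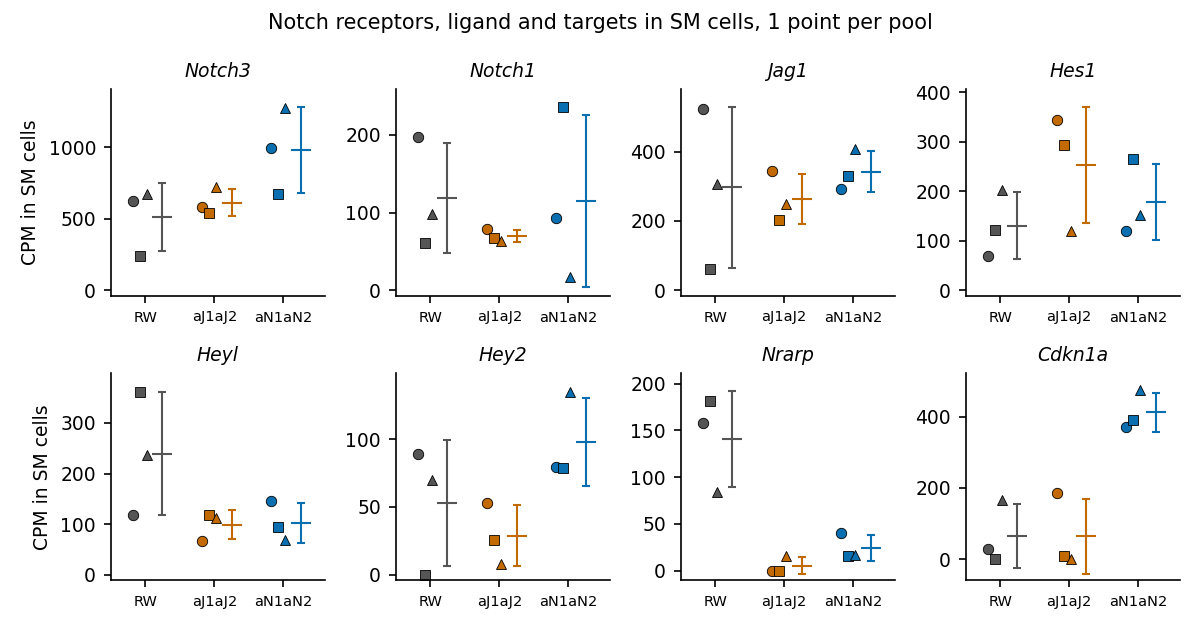
CPM in SM cells (y axis, linear) of 2 Notch receptors, the ligand Jag1 and 5 targets in RW, aJ1aJ2 and aN1aN2 (x axis), with points, means and SD drawn as for the identity genes. Nrarp lies at 83.6 to 181 CPM in RW and at 0 to 39.8 CPM in the treated pools, while Notch3 and Jag1 overlap between RW and each treated group.

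In the filtered fit, none of the Notch targets tested was called against RW. Of 19 target genes, which include Notch3, Jag1 and Pdgfrb, 8 passed the filter on low counts, 0 were called in aJ1aJ2 (median log2 difference -0.06, against 0.03 over all tested genes) and 0 in aN1aN2 (0.19 against 0.01). Over all 1671 tested genes 1.08% were called in aJ1aJ2 and 3.53% in aN1aN2, so 0 calls among 8 says little about the list. Cdkn1a, a cell cycle inhibitor on this list that many other signals also induce, was at 29.6, 0 and 167 CPM in RW, 185, 8.41 and 0 in aJ1aJ2, and 371, 391 and 474 in aN1aN2. The aN1aN2 pools lay above all others, with a log2 difference of 2.04 from RW that did not pass (adjusted p 0.14, and 0.0103 without the filter, edgeR) and of 2.89 from aJ1aJ2 that did (SE 0.76, adjusted p 0.0433). Cyclin D1 (Ccnd1) had 19 UMIs in RW, 2 in aJ1aJ2 and 4 in aN1aN2, and was not called without the filter (adjusted p 0.0533 and 0.623). Of these 25 UMIs, 17 lay in cells with Pecam1 or Cdh5. Of 9 receptors and ligands 2 were tested and 0 called in either comparison, and none of the 19 genes for Notch processing and nuclear cofactors passed the filter.

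Ligand blockade was compared with RW over the 1671 genes with enough counts. All adjusted p-values here are edgeR's (quasi-likelihood, Benjamini-Hochberg). They called 18 genes (1.08% of those tested), 15 with more RNA in aJ1aJ2 (0.898%) and 3 with less (0.18%). The unadjusted p was under 0.05 for 267 genes. In all 18 the pools of the groups did not overlap, a pattern that 19.1% of all tested genes showed, and the direction therefore held within series A and within series B. The number of calls rested on single pools: it was 0 without aJ1aJ2 4, 3 without aJ1aJ2 3, 9 without aJ1aJ2 1, 10 without RW 1 and 30 without RW 2. It was 0 with the series as a block, and 28 without the cells that carried Pecam1 or Cdh5. The pool aJ1aJ2 4 stood apart in other measures: its SM cells had a median mitochondrial share of 14.6% of UMIs (7.21% to 8.93% in RW), skeletal muscle genes at 3783 CPM (at most 121 in RW) and thyrocyte genes at 1992 CPM (at most 530 in RW). The part of these in the calls was not tested.

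The genes that rose most were Nav1, Hlf, Cpm, Cp, Enpp2 and Nid1. Nav1 (ENSMUSG00000009418, chr1:135434580-135607295), a microtubule-associated protein, was at 19.7, 0 and 0 CPM in RW, 198, 135 and 216 in aJ1aJ2, and 0, 47.0 and 0 in aN1aN2. Only the aJ1aJ2 pools stood out, with 58 UMIs where RW had 2, and the rates differed 23.7 times (95% counting interval 6.28 to 201, adjusted p 0.0325). In the pericyte-like cluster it had 45 UMIs in aJ1aJ2 and 0 in RW and in aN1aN2, and in the contractile cluster 13, 2 and 2. Hlf, a clock output transcription factor of the PAR bZIP family, was at 19.7, 0 and 20.9 CPM in RW and 132, 143 and 312 in aJ1aJ2 (log2 change 3.40, SE 0.64, adjusted p 0.0279). All 4 tested clock genes had log2 values above 0 (median 1.40), but Hlf was the one that passed, while Nr1d1 (1.39, adjusted p 0.212) and Nr1d2 (1.41, 0.116) did not. Hlf also rose in EC1 (1.91, adjusted p 0.00147) and F (1.5, adjusted p 0.0376).

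Several of the raised genes were higher in the pericyte-like cluster. Cp (ceruloplasmin, a copper-carrying iron oxidase) was at 19.7, 242 and 34.8 CPM in RW and 277, 269 and 568 in aJ1aJ2 (3.09, SE 0.59, adjusted p 0.0279), and Cpm (carboxypeptidase M) at 0, 0 and 48.8 against 211, 227 and 264 (3.19, adjusted p 0.0279). RW 2 was close to aJ1aJ2 for Cp and at 0 for Cpm. Both are among the 15 leading genes of cluster 1, of which aJ1aJ2 pools had a larger share of cells. Within cluster 1 Cp was at 191 CPM in RW and 754 in aJ1aJ2, and Cpm at 191 and 526, each from 7 UMIs in RW. Enpp2 (autotaxin, which makes lysophosphatidic acid) rose by 2.66 (adjusted p 0.0279) and the basement membrane protein Nid1 by 2.04 (0.0279). Outside SM, Nav1 (288 CPM), Enpp2 (263 CPM) and Nid1 (885 CPM) were highest in the fibroblast label F. The 10-gene fibroblast list summed to 1094, 1268 and 1198 CPM in the RW pools of SM cells and to 1768, 1354 and 1968 in aJ1aJ2, most of it Gsn. Its other 9 genes summed to 138, 0 and 97.6 CPM in RW and to 449, 25.2 and 248 in aJ1aJ2, which overlapped. The part of fibroblast RNA in these rises was not tested. Timp3, an inhibitor of matrix proteases, rose by 1.42, from 1960, 664 and 1350 CPM to 3070, 3210 and 4450 (0.0467). Nid1 and Timp3 are the 2 called genes of the 21 tested in the matrix list (median 0.20, against 0.03 over all tested genes, of which 0.898% were called higher). The sulfotransferase Sult1a1 rose by 1.78 (adjusted p 0.0467), the lysosomal ubiquitin ligase Rnf152 by 1.66 (0.0409), ferritin light chain Ftl1 by 1.01 (0.0434), the nuclear RNA Neat1 by 1.2 (0.0467), Lars2 by 1.51 (0.0409) and Gm47283 by 1.75 (0.0279).

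The 3 genes that fell had most of their UMIs in the contractile cluster. Ramp1 (ENSMUSG00000034353, chr1:91179822-91225196), the accessory protein that forms the receptor for the vasodilator CGRP, was at 286, 242 and 453 CPM in RW and 145, 143 and 88.0 in aJ1aJ2 (-1.44, SE 0.33, adjusted p 0.0467). Susd5 was at 158, 242 and 321 CPM in RW against 52.8, 50.5 and 64.0 (-2.01, adjusted p 0.0451), and Uba2, a subunit of the SUMO-activating enzyme, at 581, 906 and 516 against 211, 219 and 168 (-1.55, adjusted p 0.0279). Within the contractile cluster, which held all 101 Susd5 UMIs, Susd5 was at 322 CPM in RW and 138 in aJ1aJ2 and Ramp1 at 420 and 176, so both were lower in aJ1aJ2 there too (not tested). The gap junction gene Gja4 (connexin 37), at 167, 544 and 537 CPM in RW and 66.0, 92.5 and 120 in aJ1aJ2, did not pass (-1.93, adjusted p 0.0604), and neither did Smim5 (-2.04, 0.0565). Gja4 was lower in aJ1aJ2 in cluster 1 (159 against 790 CPM) and in cluster 2 (61.2 against 361 CPM).

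**Figure D4:**
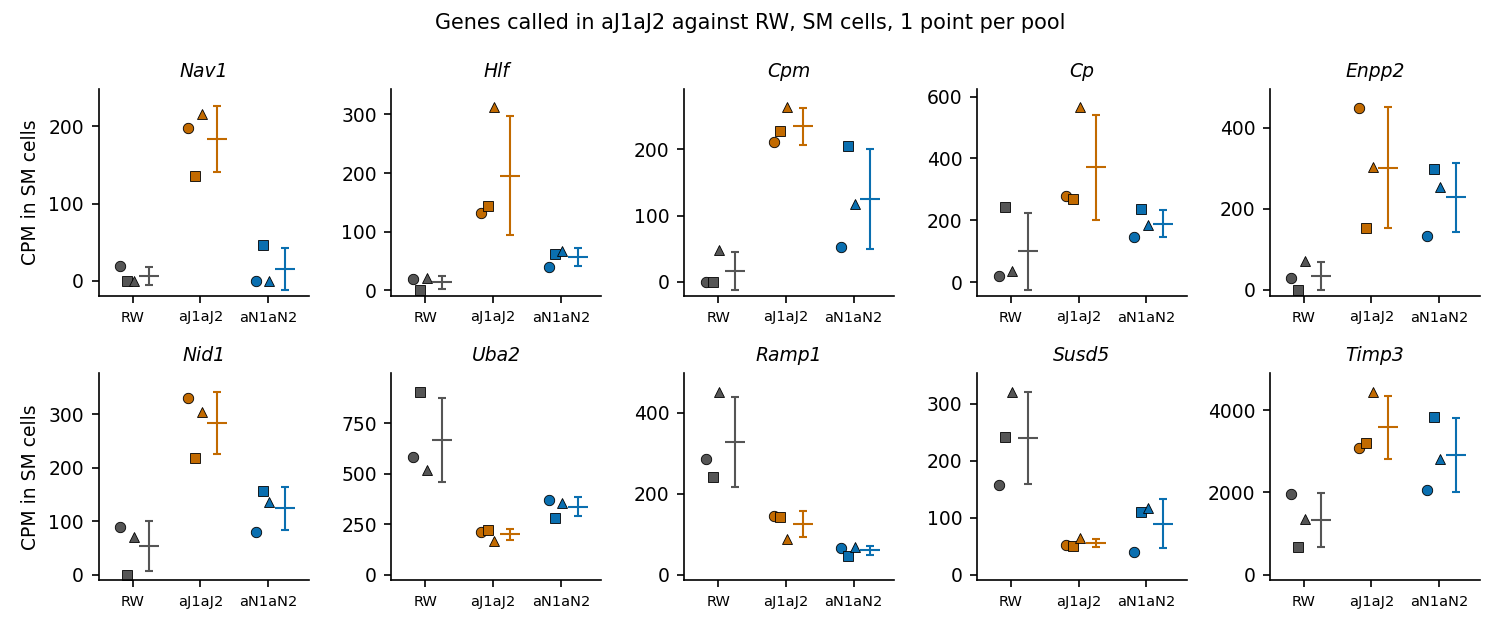
CPM in SM cells (y axis, linear) of 10 genes called in aJ1aJ2 against RW, drawn as for the identity genes, with aN1aN2 beside them (x axis). Nav1 is at 135 to 216 CPM in aJ1aJ2 and at most 47.0 in the other pools, and Ramp1 is lower in both treated groups than in RW.

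Most contractile genes had lower values in aJ1aJ2, and none was called. Of 16 tested members of the contractile list, 14 had a log2 value below 0 (median -0.46, against 0.03 over all genes) and 0 were called. Over all 1671 tested genes 1.08% were called, so 0 calls in a list of this size says little about it. Acta2 was at 13500, 14100 and 17800 CPM in RW and 8100, 10300 and 5850 in aJ1aJ2 (-0.84, SE 0.30, adjusted p 0.191), and Tagln at 8740, 8640 and 12600 against 5250, 6430 and 5920 (-0.69, adjusted p 0.224). Their pools did not overlap. In the contractile cluster alone Acta2 was at 18500 CPM in RW and 14900 in aJ1aJ2. Of 15 tested pericyte genes 0 were called (median -0.04): Abcc9 had 1.80 (adjusted p 0.0604) and Pdgfrb 1.13 (0.0632), while Cox4i2 had -1.39 (0.0632) and Rgs5 was at 2060, 2990 and 3460 CPM, within the RW range of 1010 to 10000. In cluster 1 Rgs5 was at 14100 CPM in RW and 5790 in aJ1aJ2, where the RW cells are 1, 2 and 15 from RW 1, 2 and 3. The endothelin receptor Ednrb (2.30, adjusted p 0.0632) and the immediate early gene Egr1 (2.17, 0.0632) did not pass. All 6 tested dissociation response genes had log2 values above 0 (median 1.00, 0 called), and this list summed to 1027 to 1507 CPM in RW and 1430 to 4539 in aJ1aJ2. Its part in the other results was not tested.

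Receptor blockade gave 59 called genes of 1671 (3.53%), 39 higher (2.33%) and 20 lower (1.2%) in aN1aN2 than in RW, with 296 at an unadjusted p under 0.05. The pools of 54 of the 59 did not overlap, against 21.7% of all tested genes. The count was 16 without aN1aN2 1, 17 without RW 3, 26 without aN1aN2 2 and 29 without aN1aN2 3. All aN1aN2 pools belong to series C, which holds no RW pool, so the comparison cannot be repeated inside 1 series.

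Among the raised genes were Fabp4, Angptl4, Cd36 and Pnpla2. Fabp4 (ENSMUSG00000062515, chr3:10204088-10208576), a cytosolic fatty acid carrier, was at 2010, 3380 and 2220 CPM in RW, 3910, 4890 and 3870 in aJ1aJ2 and 12700, 14400 and 14800 in aN1aN2. The 3 groups did not overlap, and aN1aN2 was 2.49 log2 units above RW (SE 0.27, adjusted p 4.93e-05). Summed over pools, it was at 4000 CPM in RW and 19900 in aN1aN2 in the pericyte-like cluster, and at 2060 and 13300 in the contractile cluster. Fabp4 is also abundant outside SM, at 24100 CPM in the endothelial label EC2. In SM cells without Pecam1 or Cdh5 it was at 625, 3380 and 2130 CPM in RW and 13000, 17200 and 19300 in aN1aN2. Angptl4, a secreted inhibitor of lipoprotein lipase, was at 19.7, 0 and 48.8 CPM in RW, 52.8, 84.1 and 176 in aJ1aJ2 and 424, 595 and 406 in aN1aN2 (3.73, SE 0.53, adjusted p 0.00091). The fatty acid transporter Cd36 rose by 2.76 (adjusted p 0.0149), although RW 2 (483 CPM) overlapped aN1aN2 1 (464 CPM), and the triglyceride lipase Pnpla2 rose by 1.70 (0.0206). These rises were also seen outside SM. In EC1 the log2 changes were 0.54 for Fabp4, 7.05 for Angptl4, 3.31 for Cd36 and 2.40 for Pnpla2. In F they were 4.30 for Fabp4, 1.51 for Angptl4 and 2.40 for Pnpla2, and Cd36 had no value.

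Other raised genes included Igfbp4 (ENSMUSG00000017493, chr11:99041244-99054392), an insulin-like growth factor binding protein, at 887, 845 and 746 CPM in RW, 713, 1080 and 520 in aJ1aJ2 and 2930, 2100 and 3210 in aN1aN2 (1.71, SE 0.26, adjusted p 0.00186). The aN1aN2 pools stood above all others, and the same order held in cluster 1 (291 CPM in aJ1aJ2, 1470 in aN1aN2) and in cluster 2 (757 CPM in RW, 3060 in aN1aN2). Nampt, which makes NAD from nicotinamide, was at 128, 0 and 111 CPM in RW and 729, 767 and 575 in aN1aN2 (2.64, adjusted p 0.00091). Ccdc71l rose by 3.21 (0.0108), Inafm1 by 3.19 (0.0182), H2-M9 by 2.88 (0.0148), the p53 target Trp53inp1 by 2.53 (0.0019), Ndrg1 by 2.38 (0.048), the transcriptional coregulator Cited2 by 2.23 (0.0178), the autophagy receptor Sqstm1 by 2.02 (0.00727), and Txnip by 1.52 (0.031). Tsc22d3, a textbook glucocorticoid target, was the 1 called gene of 7 tested on the glucocorticoid list (1.99, 0.0178). Over all tested genes 2.33% were called higher. All 7 on the list had log2 values above 0 (median 1.18, against 0.01 over all tested genes). Tsc22d3 also rose in F (3.44) and EC1 (1.43), as did Txnip (1.89 and 1.96), while Igfbp4 did not (-0.58 and -0.07). Of 6 tested signals between pericytes and endothelium, the growth factor Fgf1 rose (1.31, 0.0441), from 98.5, 121 and 132 CPM to 345, 266 and 288.

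Of the 20 genes called lower, 5 are on the matrix list. Of 21 tested matrix genes 5 were called lower and 0 higher (median -0.50, against 0.01 over all genes). Over all 1671 tested genes 1.2% were called lower and 2.33% higher. Col1a1 was at 177, 181 and 181 CPM in RW, 369, 84.1 and 208 in aJ1aJ2 and 39.8, 0 and 16.9 in aN1aN2 (-3.11, SE 0.74, adjusted p 0.026), where it had 4 UMIs in all. Col3a1 fell by 2.55 on the log2 scale (0.0444), although RW 2 had 0 UMIs, and Col1a2 by 2.04 (0.0495). Of the 140 RW UMIs of Col3a1, 83 lay in the 5 RW cells of cluster 3, as did 23 of 47 for Col1a1. Col3a1 was at 790 CPM in RW and 347 in aN1aN2 in cluster 1, and at 137 and 13.3 in cluster 2. In cluster 3 it was at 4130 and 90.1 (not tested). In F the log2 changes were -4.76 for Col3a1, -3.49 for Col1a1 and -2.69 for Col1a2. The part of fibroblast RNA in these falls was not tested. Eln (elastin) was at 315, 60.4 and 453 CPM in RW and 66.3, 62.6 and 50.7 in aN1aN2 (-2.49, 0.0185), and RW 2, with 1 UMI, lay among the aN1aN2 pools. Sparc fell by 1.04 (0.0304), from 1090, 2110 and 1820 to 742, 877 and 778 CPM. Cnn1 (ENSMUSG00000001349, chr9:22099216-22109630) was the only called gene of 16 on the contractile list (median -0.28), where 3.53% of all tested genes were called in either direction. It was at 217, 664 and 530 CPM in RW, 185, 118 and 304 in aJ1aJ2 and 119, 47.0 and 84.6 in aN1aN2 (-2.35, SE 0.52, adjusted p 0.0182). All aN1aN2 pools lay below all RW pools. In the contractile cluster Cnn1 was at 474 CPM in RW, 230 in aJ1aJ2 and 100 in aN1aN2, and Eln at 371, 260 and 53.4. The muscle transcription factor Mef2c fell by 1.15 (0.0492) and vimentin (Vim) by 1.17 (0.0182). None of the 15 tested pericyte genes was called (median 0.11).

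Ramp1 also fell in aN1aN2, to 66.3, 47.0 and 67.7 CPM (-2.56, SE 0.40, adjusted p 0.0019), and in the contractile cluster from 420 to 60.1 CPM. The aN1aN2 pools lay below all aJ1aJ2 pools, but no test of Ramp1 between the blockades is given here. Ramp1 is 1 of 5 genes called in both comparisons with the same direction, with Enpp2, Ftl1, Gm47283 and Rnf152, which are 27.8% of the aJ1aJ2 calls and 8.47% of the aN1aN2 calls. Both comparisons use the same RW pools. Tppp3 fell by 2.50 (0.019), Tnxb by 2.32 (0.0444), Ifi27 by 1.89 (0.0228), Tmsb4x by 1.30 (0.0228), Hsp90ab1 by 1.22 (0.00719), and the nuclear RNA Malat1 by 1.67 (0.019).

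**Figure D5:**
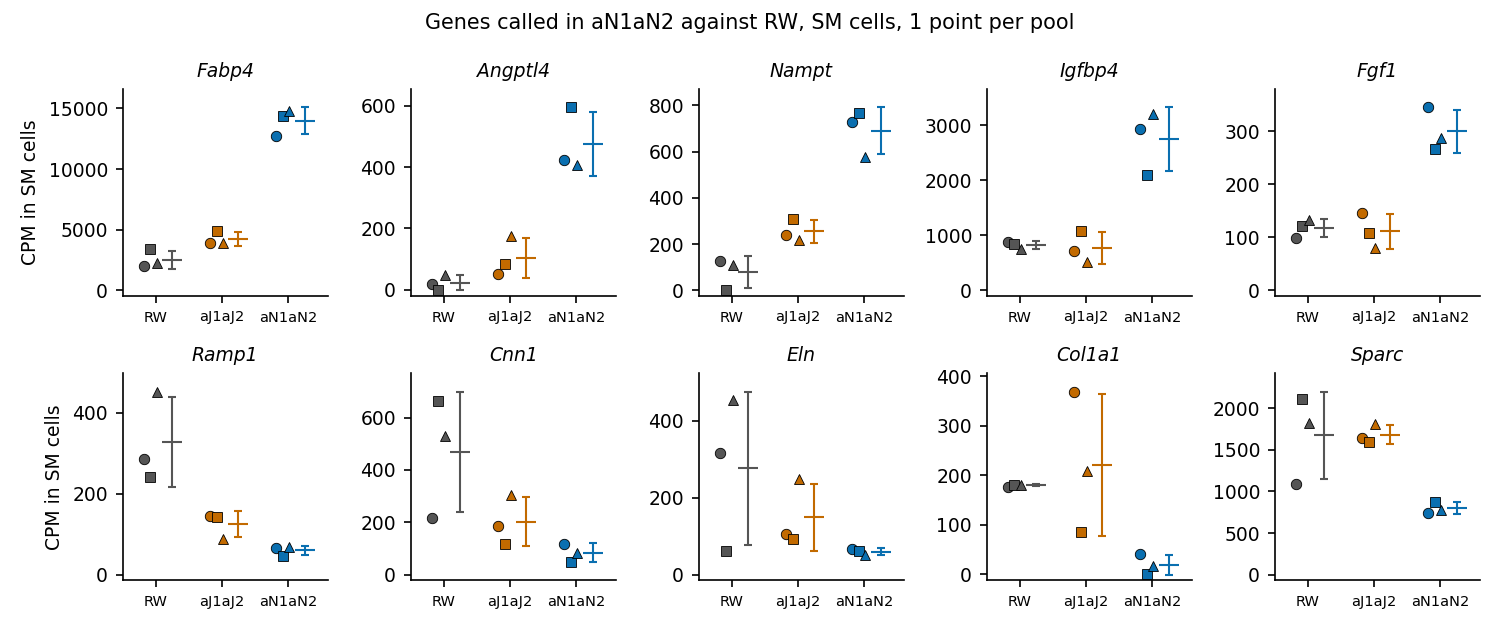
CPM in SM cells (y axis, linear) of 10 genes called in aN1aN2 against RW, drawn as for the identity genes, with aJ1aJ2 between them (x axis). Fabp4 is at 12700 to 14800 CPM in aN1aN2 and at most 4890 in the other pools, and Ramp1 and Cnn1 are lowest in aN1aN2.

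Signals of other cells and of RNA classes moved with receptor blockade. The red cell list summed to 132 to 302 CPM in RW, 264 to 480 in aJ1aJ2 and 967 to 2284 in aN1aN2, and both tested members, Hbb-bs (3.59, adjusted p 4.93e-05) and Hba-a1 (3.21, 0.00908), were called. AY036118, a locus that overlaps ribosomal RNA and is uncertain for that reason, fell by 3.30 (0.0138), and the mitochondrial ribosomal RNAs mt-Rnr2 (-1.67, 0.00854) and mt-Rnr1 (-1.63, 0.00965) fell while mt-Co2 (1.64, 0.0135) and mt-Co3 (1.57, 0.00908) rose. Thyroglobulin and the other thyrocyte genes summed to 384 to 530 CPM in RW, 396 to 1992 in aJ1aJ2 and 643 to 1347 in aN1aN2. The fibroblast list lay between 1094 and 1268 CPM in RW pools between 1354 and 1968 in aJ1aJ2 pools and between 1590 and 2730 in aN1aN2 pools, mostly Gsn, which rose by 1.01 (0.0374). Its other 9 genes overlapped, at 138, 0 and 97.6 CPM in RW and 79.5, 141 and 50.7 in aN1aN2. The part of these signals in the other calls was not tested.

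Set directly against each other, the blockades differed in 68 of 1671 genes (4.07%), 34 higher (2.03%) and 34 lower (2.03%) in aN1aN2. Egr1 was at 238, 143 and 328 CPM in aJ1aJ2 and 13.3, 15.7 and 0 in aN1aN2, 76 UMIs against 2 (ratio 23.6, 95% counting interval 6.31 to 198, adjusted p 0.00339). Of its 93 UMIs in all SM cells, 40 lay in cells with Pecam1 or Cdh5; elsewhere Egr1 was at 0, 117 and 320 CPM in aJ1aJ2 and at 0 in all aN1aN2 pools, so that aJ1aJ2 1 no longer stood apart. Slco3a1, an organic anion transporter, was lower in aN1aN2 (log2 difference -3.58, SE 0.55, 0.00193), Nav1 was lower (58 against 3 UMIs, ratio 12.0, interval 3.91 to 59.9, 0.028), and so were Mfap5 (46 against 2 UMIs, ratio 14.3, interval 3.73 to 121, 0.0272), G0s2, an inhibitor of triglyceride lipase (66 against 3 UMIs, ratio 13.7, interval 4.47 to 67.9, 0.00841) and Col6a3 (-2.88, 0.00753). Igfbp4 was 1.72 higher in aN1aN2 (SE 0.25, 0.00193), Angptl4 1.98 (0.0129), the transcription factor Cebpb 1.97 (0.0172), Npy1r 1.39 (0.016), the actin-bundling protein Palld 1.17 (0.028) and Timp4 1.66 (0.0445). Of the matrix list 1 gene was higher and 4 lower in aN1aN2, with 19 of 21 below 0 (median -1.03, against -0.01 over all tested genes). Here too blockade and series C cannot be told apart. The count was 19 without aN1aN2 3, 21 without aN1aN2 1, 26 without aJ1aJ2 4 and 38 without aJ1aJ2 1 or without aJ1aJ2 3.

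The effects in SM were compared with those of fibroblasts (F) and EC1 in 1 model with the pool as a block. For ligand blockade, 0 of 4267 genes differed between SM and F by edgeR (0%, with 320 at an unadjusted p under 0.05), and 42 of 6933 differed between SM and EC1 (0.606%), among them 6 of the 18 called in SM. Nav1, at 4.40 in SM, had log2 values of 0.51 in F and 0.04 in EC1, and differed from EC1 by 4.35 (SE 0.78, adjusted p 0.000127) but not by the test from F (3.97, SE 0.77, 0.103). Ednrb differed from EC1 by 3.20 (SE 0.48, 1.88e-06) and Gja4 by -2.37 (SE 0.45, 0.000437), although neither was called in SM itself. The SM and F count was 13 without RW 3, 4 without RW 1 and 1 without RW 2, and the SM and EC1 count was 10 without RW 2, 14 without RW 1, and 17, 22 and 24 without aJ1aJ2 4, 3 or 1.

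For receptor blockade 24 of 3062 genes differed between SM and F (0.784%) and 56 of 5439 between SM and EC1 (1.03%). Igfbp4 differed from both, by 2.31 from F (SE 0.36, adjusted p 0.000867) and by 1.79 from EC1 (SE 0.41, 0.00629), and Ramp1 differed from F by -2.70 (SE 0.55, 0.0113). Eln, at -2.49 in SM and 1.42 in EC1, differed by -3.95 (SE 0.53, 3.01e-08). Fabp4 differed from EC1 (2.00, SE 0.36, 0.000271) but not by the test from F (-1.75, SE 0.55, 0.168), where its log2 change was 4.30. Sparc fell less in SM than in F (difference 1.85, SE 0.41, 0.023). Col1a1 had -3.11 in SM and -3.49 in F (difference 0.17, SE 1.24, adjusted p 1.0), Trp53inp1 2.53 and 3.70 (-1.06, SE 0.59, 0.575) and AY036118 -3.30 and -3.99 (0.32, SE 0.83, 0.948), and none of these differences passed the test. The SM and F count was 52 without RW 3, 14 without aN1aN2 1 and 13 without aN1aN2 3, and the SM and EC1 count was 36 without aN1aN2 1 and 33 without aN1aN2 3.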

How the data were processed

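The authors deposited 1 table of counts (unique molecular identifiers per gene and cell, 52636 genes) from droplet 3' single-cell libraries, with an annotation of each cell. Per the submitters' processing notes the tools and build include Cell Ranger and GRCm38; cell filters are not given in the sources used here, and the lowest cell holds 500 UMIs. In 2619 annotation lines an unquoted comma was repaired, and 233 gene IDs had no symbol. No doublet caller was run.

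SM counts were summed per pool and tested with edgeR 4.0.16 (R 4.3.3; filterByExpr, TMM, quasi-likelihood, all 3 groups in 1 fit, adjusted p under 0.05), with DESeq2 1.42.0 as an alternative. The scripts were tested on simulated data. Clusters (scanpy 1.11.5) used 1500 variable genes, 20 components and resolution 0.5. The text names, per contrast, the 10 called genes with the largest rise and the 10 with the largest fall whose pools do not overlap, genes of lowest p where under 5 were called, list members with most UMIs or an unadjusted p under 0.05, and, for identity, the 5 markers and the 15 genes of highest ratio. Genes outside this rule were chosen after their values were seen, and a few that fall under it are not reported here. The members and all 26 gene lists were chosen with earlier results of these data known. Shared title numbers of RW and aN1aN2 did not pair the pools (correlations -0.0384 and -0.0151 for numbers 1 and 2). Counting intervals cover counting error only. Sequences are from RefSeq (GRCm38.p6).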

Additional observations from a re-analysis of the deposited data

Results flagged for a closer look

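The genes named below were called in SM and had an effect of blockade that differed between SM cells and fibroblasts (F) or capillary endothelium (EC1) by edgeR's test of the difference itself, with adjusted p-values over all genes of that test. Each value is the SM log2 effect minus that of the other label. For ligand blockade, SM exceeded EC1 for Nav1 by 4.35 (adjusted p 0.000127), Cpm by 3.62 (0.0064), Enpp2 by 2.55 (0.00166) and Nid1 by 2.11 (0.00636). None of these differed from F by the test.

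For receptor blockade, SM exceeded EC1 for Ccdc71l by 3.57 (adjusted p 0.00217), Fgf1 by 3.21 (0.00454), H2-M9 by 3.04 (0.028), Rnf152 by 2.90 (0.00223), Nampt by 2.67 (0.000156), Cited2 by 2.46 (0.00243), Fabp4 by 2.00 (0.000271), Pear1 by 1.81 (0.0485) and Igfbp4 by 1.79 (0.00629). The globin genes Hbb-bs (3.97, 8.04e-10) and Hba-a1 (3.28, 0.000493) also exceeded EC1, beside a red cell list at 967 to 2284 CPM in aN1aN2 SM cells. Eln went the other way (-3.95, 3.01e-08). Of all these genes, Igfbp4 alone also differed from F by the test. In F the log2 changes were 2.57 for Ccdc71l, 3.37 for Nampt, 0.73 for Cited2, 4.30 for Fabp4, 1.02 for Pear1 and -0.58 for Igfbp4. They were 5.91 for Hbb-bs, 6.14 for Hba-a1 and -1.44 for Eln. Fgf1, H2-M9 and Rnf152 had no value in F. Against F, the difference was 2.50 for Lims1 (0.011), 2.40 for Cavin1 (0.00136), 2.37 for Enpp2 (0.0393), 2.31 for Igfbp4 (0.000867), 1.85 for Sparc (0.023) and -2.70 for Ramp1 (0.0113). All aN1aN2 pools are of series C, so these differences cannot be told apart from differences between labels in how they vary with the series.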

How the results depend on the processing

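Of the 59 genes called in aN1aN2 against RW and the 20 followed in aJ1aJ2 against RW, none reversed direction under the alternatives run for them, none was called in every one, and causes were not tested; single genes of the other comparisons were not followed. Against 18 calls for ligand blockade there were 58 (46 higher) with no filter on low counts, 6 (2 higher) with at least 10 SM cells per pool (which leaves RW 3 as the lone control, assumed to vary like the other groups), 0 with cells of at least 1000 UMIs, 28 without Pecam1 or Cdh5 cells (chosen after seeing the data), 0 with the series as a block and 0 to 30 with 1 pool left out. Against 59 calls (39 higher) for receptor blockade there were 34 with cells of at least 1000 UMIs, 0 with a replicate block on the title numbers, which do not pair the pools, and 16 to 61 with 1 pool left out; with no filter there were 69 (35 higher), and with at least 10 cells 42 (19 higher). DESeq2 called 16 genes for ligand blockade, of which 8 were among edgeR's 18 (2 others of the 18 missed its threshold and the rest had no adjusted p), and 40 for receptor blockade, of which 38 were among edgeR's 59. Between the blockades the 68 calls became 38 with DESeq2 (35 shared), 43 with cells of at least 1000 UMIs and 19 to 47 with 1 pool left out.

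The SM and F difference for ligand blockade (0 genes) became 5 with no filter, 13 with at least 10 cells, and 0 to 13 with 1 pool left out; the SM and EC1 difference (42) became 18, 19 and 10 to 31. For receptor blockade, tests added after seeing the data, leaving out 1 pool gave 13 to 52 genes (SM and F) and 33 to 56 (SM and EC1). The share of SM cells kept its direction under all its alternatives: the difference was 1.16 to 2.44 percentage points for ligand blockade and 1.74 to 3.02 for receptor blockade with 1 pool left out, and 2.90 with the replicate block. RW 2 had 5 SM cells, so that 1 UMI is 60.4 CPM there.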

Other observations

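Ccl11, Pdk4 and Actg2 had too few UMIs for the filtered test and were chosen after their values were seen. Ccl11, the eosinophil-attracting chemokine eotaxin, had 0 UMIs in RW, 26 in aJ1aJ2 and 2 in aN1aN2 (edgeR without the filter, adjusted p 0.00197 for aJ1aJ2). Of these 28 UMIs, found in 11 cells, 20 lay in cluster 3 and 0 in the contractile cluster. Cluster 3 held 5 cells of RW, 10 of aJ1aJ2 and 7 of aN1aN2. Pdk4, a kinase that restrains glucose oxidation, had 3 UMIs in RW and 26 in aN1aN2, a ratio of 11.4 (95% counting interval 3.50 to 59.0, edgeR without the filter, adjusted p 0.0161, exact permutation p 0.1). The smooth muscle actin gene Actg2 had 31 UMIs in RW, 39 in aJ1aJ2 and 2 in aN1aN2, where the rate was 11.8 times lower than in RW (2.99 to 101, adjusted p 0.00706), but the pools overlapped (exact permutation p 0.4). Of its 72 UMIs, 53 lay in cluster 3.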
